A study of Sus scrofa with 9 samples.

Results

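The transforming growth factor beta (TGF-beta) genes described here are 9 genes of porcine embryonic fibroblasts: the ligand genes TGFB1, TGFB2 and TGFB3, the receptor genes TGFBR1, TGFBR2 and TGFBR3, the activin subunit gene INHBA, the activin antagonist gene FST and the target gene TGFBI. They were chosen by symbol, and each of the 9 matched exactly 1 of the 30477 gene IDs listed for every library. Fibroblasts are connective tissue cells, here grown in culture from pig embryos. The 9 RNA-seq libraries fall into 3 groups of 3 replicates: control cells, cells treated with insulin for 48 h and cells treated with insulin for 72 h. The controls are taken here as untreated cells at 0 h, though their titles give no time. All groups are the same cell type from embryos, and the labels give no breed, insulin concentration or medium. Neither do they say whether replicates came from separate embryos or cultures, so the p-values measure the spread between these libraries, which may be technical. No library is titled as an untreated culture of 48 h or 72 h, so insulin and time in culture cannot be told apart.

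TGF-beta ligands are secreted as latent complexes that are held in the extracellular matrix until they are released. A free ligand dimer joins a type II receptor to a type I receptor, which phosphorylates SMAD2 and SMAD3, and these enter the nucleus with SMAD4 to change transcription. Activins, ligands of the same family, use their own receptors and the same SMADs. In fibroblasts the pathway is known for inducing collagen, matrix and contractile genes, and for inducing its own inhibitors such as SMAD7.

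Levels are FPKM, fragment numbers divided by gene length and by library size, as deposited by the authors, so levels of genes of different length can be set side by side. Tests were made on log2(FPKM + 1), a scale that understates changes of low genes, with limma over the 11063 genes whose FPKM reached 1 in 3 or more libraries. Genes are said to be called where the Benjamini-Hochberg adjusted p over all of those genes was below 0.05. The FPKM of a library summed to 487858 to 497665 at 0 h, 524992 to 563656 at 48 h and 505022 to 525471 at 72 h. Every library after insulin thus had a higher sum than every 0 h library. Between 15873 and 16274 IDs were above 0. The number of reads is unknown. Of 9 matched fibroblast markers 9 were above a mean FPKM of 1 at every time, with a summed level of 20121 to 21012 at 0 h, 18839 to 19449 at 48 h and 20389 to 21025 at 72 h. Most of that sum was COL1A1, COL1A2 and VIM, and single markers differed more between times. LUM, the proteoglycan lumican, was at 12.1 to 13.0, 33.4 to 34.5 and 44.1 to 52.9 FPKM, FAP at 6.08 to 6.63, 9.98 to 10.8 and 14.3 to 16.7, and S100A4 at 441 to 492, 807 to 1066 and 643 to 743. COL1A2, a collagen I chain, was at 5625 to 5756, 4046 to 4583 and 4647 to 5172. THY1, the tenth fibroblast marker, was not matched. The endothelial marker CDH5, the leukocyte marker PTPRC and the adipocyte markers ADIPOQ and LEP were at 0 in all 9 libraries.

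Of the 9 genes, 5 were called at 48 h against 0 h, where 49.9% of all tested genes were called. TGFB1 and TGFBI were higher (2 of 9, against 27.6% of all tested genes called higher), and TGFB2, TGFB3 and INHBA were lower (3 of 9, against 22.4% called lower). At 72 h against 0 h again 5 were called (45.5% of all tested genes). TGFBR3 and TGFBI were higher (23.0% called higher), and TGFB2, TGFB3 and INHBA were lower (22.5% called lower). The libraries of both times did not overlap for 6 of the 9 genes at 48 h against 0 h and for 6 at 72 h against 0 h, beside 60.0% and 58.6% of all tested genes, and for 4 at 72 h against 48 h, beside 38.9%. The shares of called genes are near those of all tested genes, so the counts say nothing particular about the 9 genes. The median log2 change of the 9 genes was -0.05 at 48 h and 0.03 at 72 h, and that of all tested genes 0.02 and -0.01. Over the 3 times together, limma's moderated F-test called 6 of the 9 genes (5 to 7 in other settings), and 60.6% of all tested genes.

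**Figure D1:**
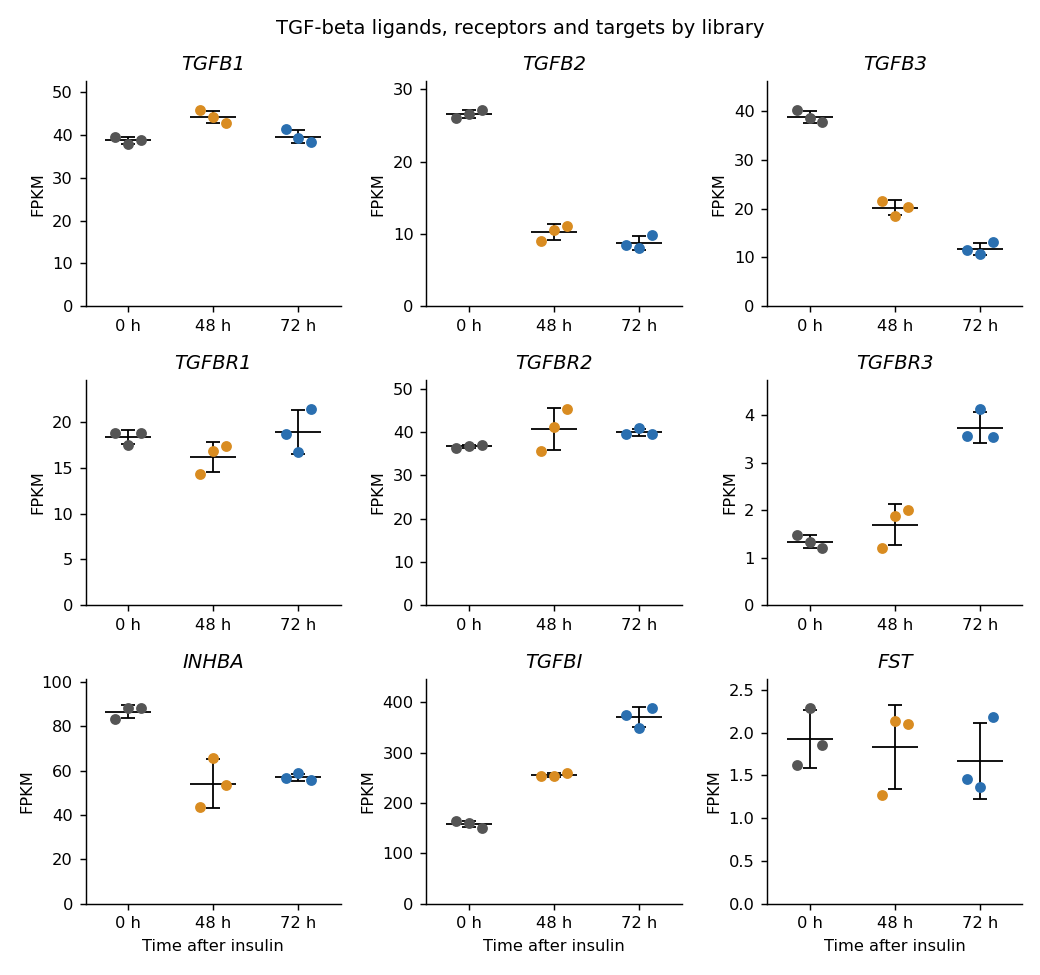
FPKM of the 9 genes in each library (points) by time after insulin, with the mean and SD of 3 libraries (horizontal and vertical black lines). TGFB2 and TGFB3 are lower at 48 h and 72 h than at 0 h in every library, TGFBI is higher in every library, and the 3 times overlap for FST.

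TGFB1 (ENSSSCG00000003017, chromosome 6, 49332169 to 49348642 of Sscrofa11.1) encodes the TGF-beta isoform best known from wound repair and fibrosis. In replicates 1, 2 and 3 its level was 39.4, 37.9 and 38.9 FPKM at 0 h, 45.7, 44.2 and 42.8 at 48 h, and 41.3, 39.2 and 38.3 at 72 h. The 48 h libraries lay above all others, while those of 0 h and 72 h overlapped. The log2 change at 48 h was 0.19 ± 0.05 (SE; limma adjusted p = 0.0161), from 38.7 ± 0.754 to 44.2 ± 1.44 FPKM (mean ± SD, n = 3). This call was lost at equal FPKM sums (0.05, adjusted p = 0.410), after rescaling to protein-coding genes (0.08, adjusted p = 0.229), under quantile normalization (0.07, adjusted p = 0.263) and without 0 h replicate 2 (0.17, adjusted p = 0.0632). At 72 h the change was 0.03, with a 95% confidence interval of -0.09 to 0.15. From 48 h to 72 h it was -0.16 ± 0.05 and was not called (adjusted p = 0.0573), but was called without 48 h replicate 3 (-0.18, adjusted p = 0.0409), with library weights (-0.14, adjusted p = 0.0437) and with no filter on low values (adjusted p = 0.0493).

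TGFB2 (ENSSSCG00000010816, chromosome 10, 8306136 to 8435307) encodes an isoform that needs the co-receptor betaglycan for efficient binding to TGFBR2. Its level was 26.1, 26.6 and 27.1 FPKM in the 0 h libraries, 8.96, 10.6 and 11.2 at 48 h, and 8.44, 8.05 and 9.84 at 72 h. Every library after insulin lay below every 0 h library, and the 48 h and 72 h libraries overlapped. The mean at 48 h was 0.385 times that at 0 h, a log2 change of -1.30 ± 0.09 (limma adjusted p = 2.93e-06), and at 72 h 0.330 times (-1.50 ± 0.09, adjusted p = 3.06e-07). Of the 11063 tested genes, 55 had a lower log2 change than TGFB2 at 48 h and 152 at 72 h. Between 48 h and 72 h the change was -0.20 ± 0.09 and was not called (adjusted p = 0.123), though it was called without 48 h replicate 1 (-0.28, adjusted p = 0.0407) and with library weights (-0.25, adjusted p = 0.0186).

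TGFB3 (ENSSSCG00000002385, chromosome 7, 99133873 to 99162239) encodes the isoform known for its part in palate fusion. Its level fell at each step, with 40.1, 38.5 and 37.7 FPKM at 0 h, 21.5, 18.5 and 20.4 at 48 h, and 11.4, 10.6 and 13.1 at 72 h. No library of one time overlapped with those of another. The log2 change was -0.91 ± 0.08 at 48 h (limma adjusted p = 1.29e-05) and -1.65 ± 0.08 at 72 h (adjusted p = 7.11e-08), where the mean was 0.302 times that of 0 h. The fall from 48 h to 72 h was also called, at -0.74 ± 0.08 (adjusted p = 0.000174).

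Shares of the 3 TGF-beta isoforms within a library are the same whatever single factor a library is scaled by, though not under quantile normalization. Their summed level was 104 ± 1.32 FPKM at 0 h, 74.6 ± 1.48 at 48 h and 60.1 ± 1.89 at 72 h (SD, n = 3). At 0 h TGFB1 and TGFB3 held like shares, 37.2% ± 0.359 and 37.3% ± 0.806, and TGFB2 held 25.5% ± 0.753. TGFB1 then held 59.3% ± 1.48 at 48 h and 65.9% ± 2.95 at 72 h. TGFB3 held 27.0% ± 1.55 and 19.5% ± 1.67 at those times, and TGFB2 13.7% ± 1.73 and 14.6% ± 1.29. The shares are given as a description, without a test.

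**Figure D2:**
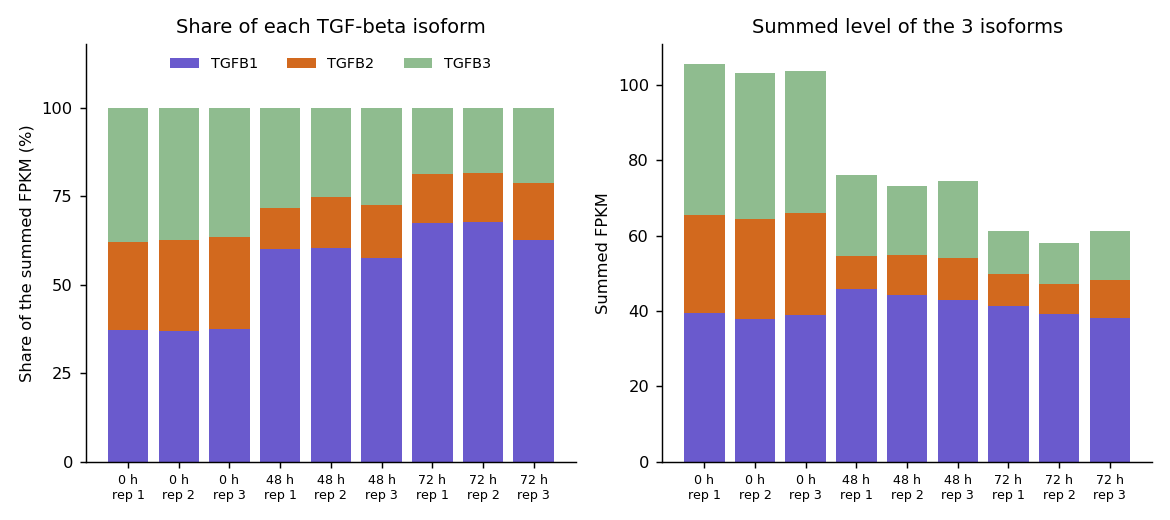
Share of TGFB1, TGFB2 and TGFB3 in their summed FPKM (left, %) and the summed FPKM itself (right), for each of the 9 libraries. TGFB1 holds 36.8% to 37.5% in the 0 h libraries, 57.6% to 60.3% at 48 h and 62.5% to 67.7% at 72 h, while the sum is lower at the later times.

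INHBA (ENSSSCG00000035077) encodes the beta A subunit, whose dimer is activin A. The reference table lists the symbol with a type other than protein-coding and a span of 1750 bp. That entry may be another locus than the gene ID measured here, so no position is given. Its level was 83.2, 88.4 and 88.1 FPKM at 0 h, 43.6, 65.7 and 53.4 at 48 h, and 56.6, 59.0 and 55.7 at 72 h. All libraries after insulin lay below those of 0 h. The 48 h libraries were the most spread, with an SD of 11.0 FPKM against 2.93 at 0 h and 1.69 at 72 h. The log2 change was -0.68 ± 0.11 at 48 h (limma adjusted p = 0.000789) and -0.59 ± 0.11 at 72 h (adjusted p = 0.00168). From 48 h to 72 h it was 0.09, with a 95% interval of -0.16 to 0.34.

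FST (ENSSSCG00000016892, chromosome 16, 32806341 to 32811382) encodes follistatin, a secreted protein that binds activins and blocks them. It was low, at 1.62 to 2.29 FPKM at 0 h, 1.27 to 2.14 at 48 h and 1.37 to 2.18 at 72 h, and the 3 times overlapped. The log2 changes were -0.05 (95% interval -0.40 to 0.29) at 48 h and -0.14 (-0.48 to 0.21) at 72 h, and neither was called (limma adjusted p = 0.800 and 0.498). INHBA was at 45.8 ± 6.53 times the level of FST at 0 h, 30.2 ± 4.49 times at 48 h and 35.8 ± 9.12 times at 72 h (SD, n = 3).

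TGFBR1 (ENSSSCG00000005382, chromosome 1, 240842735 to 240918267) encodes the type I receptor kinase of TGF-beta, also called ALK5. Its level was 17.5 to 18.9 FPKM at 0 h, 14.3 to 17.4 at 48 h and 16.7 to 21.4 at 72 h. The 48 h libraries lay below those of 0 h, and the log2 change of -0.18 was not called (95% interval -0.39 to 0.03, limma adjusted p = 0.145). It was called at equal FPKM sums (-0.31, adjusted p = 0.0390) and after rescaling to protein-coding genes (-0.29, adjusted p = 0.0496). The change at 72 h was 0.04 (-0.18 to 0.25). From 48 h to 72 h it was 0.21 (adjusted p = 0.123), called without 72 h replicate 2 (0.30, adjusted p = 0.0479).

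TGFBR2 (ENSSSCG00000011226, chromosome 13, 16784370 to 16875828) encodes the type II receptor that binds the ligand. Its level was 36.4 to 37.0 FPKM at 0 h, 35.7 to 45.3 at 48 h and 39.5 to 40.9 at 72 h. The log2 changes were 0.14 (95% interval -0.03 to 0.31) at 48 h and 0.12 (-0.05 to 0.29) at 72 h, and neither was called (limma adjusted p = 0.159 and 0.239). The 48 h value was called without 48 h replicate 1 (0.23, adjusted p = 0.0116) and with library weights (0.16, adjusted p = 0.0147). TGFBR2 was at 2.00 ± 0.0911 times the level of TGFBR1 at 0 h, 2.51 ± 0.0828 times at 48 h and 2.13 ± 0.303 times at 72 h (SD, n = 3).

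TGFBR3 (ENSSSCG00000006911, chromosome 4, 125109939 to 125310788) encodes betaglycan, the co-receptor that presents ligand to TGFBR2. Its level was 1.48, 1.32 and 1.2 FPKM at 0 h, 1.2, 1.87 and 2.01 at 48 h, and 3.56, 4.13 and 3.54 at 72 h. The 72 h libraries lay above all others, and those of 0 h and 48 h overlapped. The mean at 72 h was 2.81 times that at 0 h, a log2 change of 1.02 ± 0.12 (limma adjusted p = 5.72e-05) that was 1.42 with a pseudocount of 0.1. From 48 h to 72 h it rose by 0.83 ± 0.12 on the log2 scale (adjusted p = 0.000949). The 48 h value of 0.20 was not called (95% interval -0.07 to 0.46, adjusted p = 0.203), but was called without 48 h replicate 1 (0.33, adjusted p = 0.0199) and with library weights (0.28, adjusted p = 0.0147).

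TGFBI (ENSSSCG00000014316, chromosome 2, 138191793 to 138225373) encodes a secreted matrix protein that binds integrins and collagens, named for its induction by TGF-beta. Its level rose at each step, with 164, 161 and 151 FPKM at 0 h, 255, 253 and 260 at 48 h, and 375, 350 and 389 at 72 h. The 3 times did not overlap. The log2 change was 0.69 ± 0.06 at 48 h (limma adjusted p = 8.46e-06) and 1.22 ± 0.06 at 72 h (adjusted p = 5.1e-08), where the mean was 2.34 times that of 0 h. The rise from 48 h to 72 h was 0.53 ± 0.06 (adjusted p = 0.000135). TGFBI was at 1.52 ± 0.0586 times the summed level of the 3 isoforms at 0 h, 3.43 ± 0.0783 times at 48 h and 6.18 ± 0.164 times at 72 h.

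**Figure D3:**
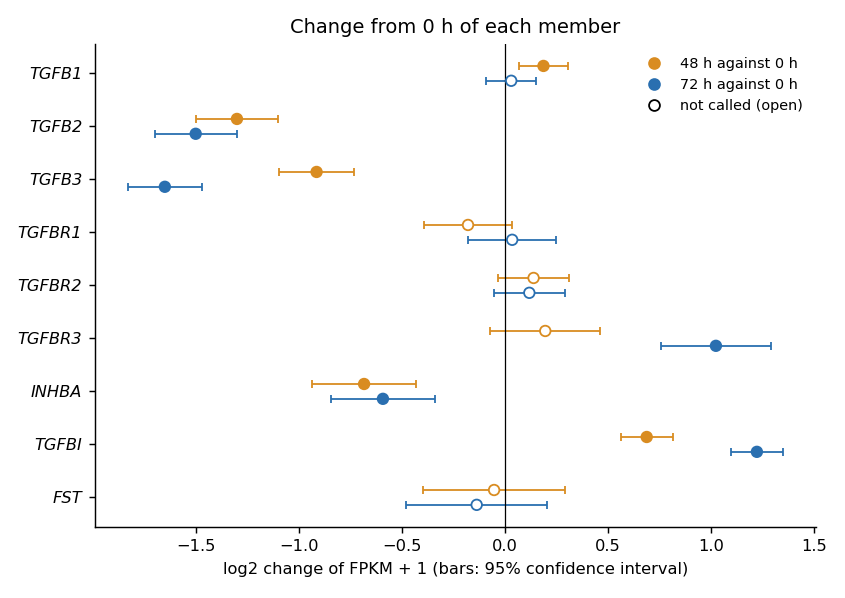
Log2 change of FPKM + 1 from 0 h at 48 h (orange) and 72 h (blue) for the 9 genes, with 95% confidence intervals from limma. Filled points passed an adjusted p of 0.05 over all tested genes, and open points did not. TGFB2, TGFB3 and INHBA lie left of 0 at both times and TGFBI right of it.

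Between 48 h and 72 h, 3 of the 9 genes were called, where 25.4% of all tested genes were called. TGFBR3 and TGFBI were higher (2 of 9, against 9.17% of all tested genes called higher) and TGFB3 was lower (1 of 9, against 16.3% called lower). By level at 0 h the order was TGFBI, INHBA, TGFB3, TGFB1, TGFBR2, TGFB2, TGFBR1, FST and TGFBR3, and the libraries of TGFB3 and TGFB1 overlapped. At 48 h the order was TGFBI, INHBA, TGFB1, TGFBR2, TGFB3, TGFBR1, TGFB2, FST and TGFBR3. The libraries of INHBA, TGFB1 and TGFBR2 overlapped in that order, as did those of FST and TGFBR3. At 72 h TGFBR2, at 39.9 ± 0.805 FPKM, and TGFB1, at 39.6 ± 1.55, overlapped. TGFB3 and TGFB2 stood below TGFBR1, and TGFBR3 stood above FST without overlap.

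Genes with the most similar pattern were found for the 3 genes with the widest range of mean log2 levels, by the root mean square difference of centred log2 values over 9 libraries. Nearest to TGFB3 were SKA1, a part of the complex that ties kinetochores to microtubules (difference 0.066), BBS7, a subunit of the ciliary BBSome (0.092), and PHF19, a partner of Polycomb repressive complexes (0.093). Nearest to TGFB2 were NDC1, a nuclear pore protein (0.065), FLT1, a receptor of vascular endothelial growth factor (0.087), and GAS2L3, a cytoskeletal linker (0.096). Nearest to TGFBI were SERPINF1, a secreted serpin (0.070), SEMA3B, a semaphorin (0.084), and MMP14, a membrane-bound matrix protease (0.098). SERPINF1 was at 142, 238 and 330 FPKM at the 3 times, beside 159 ± 6.83, 256 ± 3.27 and 371 ± 20.0 for TGFBI.

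Summed markers of some other cell types differed between times. The 6 pericyte and smooth muscle markers, 4 of them above a mean FPKM of 1, had a summed level of 1505 to 1533 at 0 h, 895 to 973 at 48 h and 824 to 1031 at 72 h. Most of the sum was DES, which encodes desmin, at 1422 to 1453, 858 to 937 and 790 to 993 FPKM, and RGS5, a defining pericyte marker, was at or near 0, with no library above 0.04. The 6 leukocyte markers summed to 1.54 to 2.27, 4.13 to 5.14 and 3.68 to 5.40 FPKM. Only CD14 was above a mean FPKM of 1, at 1.49 to 2.01, 3.48 to 4.94 and 3.26 to 4.64. The 5 matched epithelial markers summed to 5.83 to 6.96, 12.6 to 13.9 and 9.68 to 10.7. Only KRT8, a keratin, was above a mean FPKM of 1, at 5.36 to 6.43, 11.4 to 12.5 and 8.36 to 10.1. EPCAM and CDH1 were at most 0.08 and 0.05 FPKM. Of the 3 matched neural markers, TUBB3, a tubulin, was at 62.0 to 70.5 FPKM at 0 h, 134 to 161 at 48 h and 127 to 148 at 72 h. NES, the intermediate filament nestin, went the other way, at 109 to 115, 69.5 to 88.8 and 39.9 to 55.4, and SOX10 was at most 0.26. The sum of the 3 was 176 to 182, 203 to 250 and 182 to 192 FPKM. Skeletal muscle, endothelial and adipocyte markers summed to at most 2.02, 1.25 and 0.14 FPKM in any library. Their part in the results on the 9 genes was not tested. In bulk RNA, fewer cells of a type and less RNA per cell cannot be told apart.

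The other genes of the pathway were taken from 6 lists of 87 genes in all, of which 77 were tested. At 48 h 24 of the 77 were called higher and 25 lower, beside 27.6% and 22.4% of all tested genes, and at 72 h 24 and 18, beside 23.0% and 22.5%. These 4 shares are the background of every list count that follows. The 77 genes had median log2 changes of 0.02 and 0.10 beside 0.02 and -0.01 for all tested genes. With libraries scaled to equal FPKM sums 14 were higher and 31 lower at 48 h, and after rescaling to protein-coding genes 15 and 30. Among all tested genes, the share of calls at 48 h that were higher went from 55.2% to 34.7% at equal sums and 38.4% after rescaling to protein-coding genes. At equal sums the median of all tested genes at 48 h moved from 0.02 to -0.10. Relative to that median TGFB1 was at 0.15, TGFB2 at -1.33, TGFB3 at -0.95, INHBA at -0.72 and TGFBI at 0.65.

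**Figure D4:**
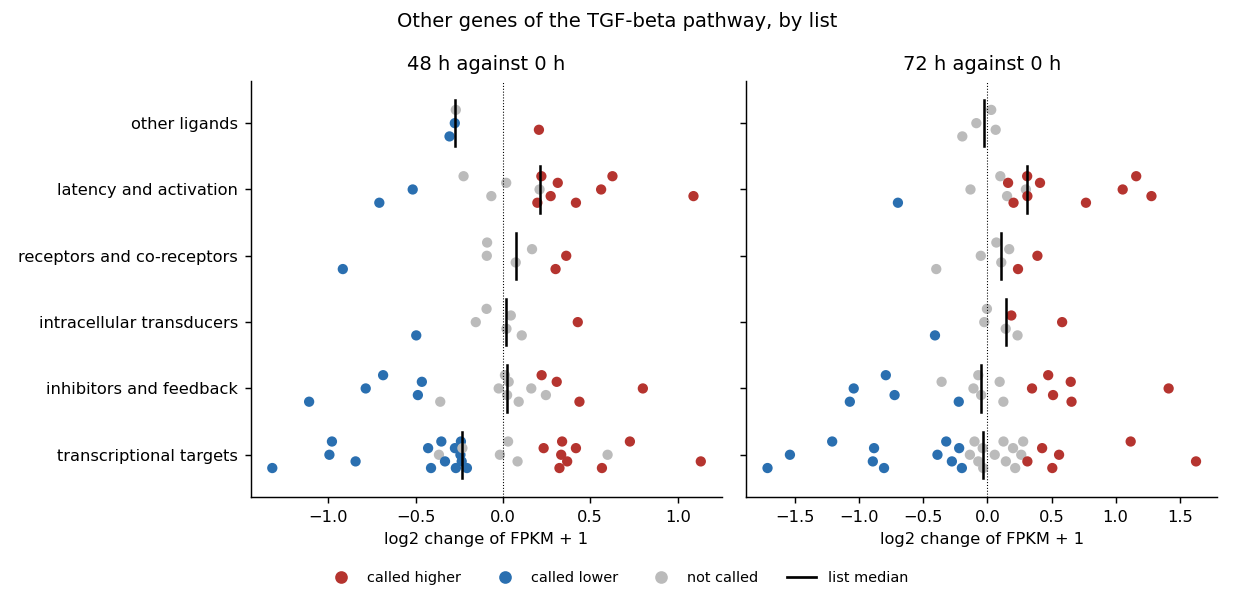
Log2 change of FPKM + 1 at 48 h (left) and 72 h (right) against 0 h for the tested genes of each list. Each point is a gene, coloured by its call, and black bars are list medians. Transcriptional targets lie on both sides of 0, with 9 of 29 called higher and 14 lower at 48 h (27.6% and 22.4% of all tested genes) and 6 and 11 at 72 h (23.0% and 22.5%).

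Among other ligands of the family, 4 of 9 genes were tested. At 48 h GDF11 was called higher (0.21 ± 0.08, limma adjusted p = 0.0474), and BMP4 (-0.31 ± 0.10, adjusted p = 0.0244) and GDF15 (-0.28 ± 0.09, adjusted p = 0.0271) were called lower. The call of GDF11 was lost in 11 of 18 settings (adjusted p up to 0.372), among them without any of the 0 h libraries, without 48 h replicate 1 or 3 and without 72 h replicate 1. BMP4 lost its call in 5 of 17 settings (adjusted p up to 0.0762), which included leaving out 0 h replicate 1 or 3 or 48 h replicate 2 or 3. GDF15 lost its call in 5 of 18 settings (adjusted p up to 0.111), which included leaving out any 0 h library or 48 h replicate 2. At 72 h 0 of the 4 were called by limma, and 0 had an unadjusted p below 0.05, but BMP4 was called without 72 h replicate 1 (-0.28, adjusted p = 0.0473). MSTN, INHA and NODAL were at or below 0.13 FPKM in every library.

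Latency and activation genes, which store the ligand in the matrix or release it, had 8 of 14 called higher and 2 lower at 48 h (27.6% and 22.4% of all tested genes), and 9 and 1 at 72 h (23.0% and 22.5%), with medians of 0.21 and 0.31. ITGB5, an integrin subunit that pairs with the alpha V chain, rose from 16.5 ± 0.150 to 36.5 ± 3.58 and 41.8 ± 5.52 FPKM (log2 changes of 1.09 and 1.28). MMP14 rose from 287 ± 4.23 to 444 ± 18.3 and 598 ± 19.3 FPKM, and MMP2, a gelatinase that MMP14 activates, from 252 ± 13.2 to 373 ± 14.2 and 570 ± 90.6. THBS1, thrombospondin 1, which can release latent TGF-beta, fell by 0.71 and 0.70 on the log2 scale (limma adjusted p = 0.000718 and 0.000662). FBN1, fibrillin 1, fell by 0.52 at 48 h and was at 0.15 at 72 h (adjusted p = 0.354).

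In the list of receptors and co-receptors 2 of 7 were called higher and 1 lower at 48 h (27.6% and 22.4% of all tested genes), and 2 and 0 at 72 h (23.0% and 22.5%), where limma's unadjusted p was below 0.05 for 3 higher and 0 lower. ENG, endoglin, rose by 0.36 ± 0.07 at 48 h (limma adjusted p = 0.00265). Its 72 h value of 0.17 was not called (adjusted p = 0.0872). It was called under quantile normalization (0.22, adjusted p = 0.0323), with library weights (0.17, adjusted p = 0.0416) and without 72 h replicate 3 (0.22, adjusted p = 0.0436). ACVR1, a type I receptor of activins and BMPs, rose by 0.39 ± 0.07 at 72 h (adjusted p = 0.000802). ACVRL1, a type I receptor best known in endothelium, rose by 0.30 and 0.24. Its call at 72 h was lost in 9 of 17 settings (adjusted p up to 0.105), among them without any library of 0 h or 72 h or without 48 h replicate 2, and that at 48 h at equal FPKM sums (0.22, adjusted p = 0.0582). BMPR2, the type II receptor of BMPs, fell from 29.6 ± 1.54 to 16.0 ± 6.28 FPKM at 48 h. Its 72 h value of -0.40 was not called (adjusted p = 0.141), but leaving out 48 h replicate 1 or 3 made it a call (adjusted p = 0.0104 and 0.0341), as did library weights (-0.38, adjusted p = 0.0348). The activin receptor genes ACVR1B and ACVR2A were at -0.09 and 0.17 at 48 h and at 0.07 and 0.11 at 72 h, none of them called. Library weights made ACVR2A a call at 48 h (0.18, adjusted p = 0.0483). ACVR2B, their relative, was at 0.56 to 0.69 FPKM at 0 h, 0.14 to 0.46 at 48 h and 0.37 to 0.53 at 72 h and was not tested.

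Of 7 intracellular transducers 1 was called higher and 1 lower at 48 h, where 49.9% of all tested genes were called, and 2 and 1 at 72 h, where 45.5% were. SMAD3 rose from 7.31 ± 0.315 to 10.2 ± 0.387 and 11.4 ± 0.0802 FPKM (0.43 ± 0.06, limma adjusted p = 0.000314, and 0.58 ± 0.06, adjusted p = 2.59e-05). SMAD2 was at -0.16 and 0.14 and SMAD4 at 0.05 and 0.24, and none of these passed the test. SMAD2 was called lower at 48 h at equal FPKM sums (-0.28) and after rescaling to protein-coding genes (-0.26). SMAD4 was called higher at 72 h without 72 h replicate 2 (0.33, adjusted p = 0.0158), with library weights (0.24, adjusted p = 0.0191), with the replicate number as a block (adjusted p = 0.0341) and under quantile normalization (0.26, adjusted p = 0.0460). MAP3K7, the kinase TAK1, fell by 0.50 and 0.41 on the log2 scale, and the call at 72 h was lost without 72 h replicate 1 (-0.34, adjusted p = 0.0567).

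Of the inhibitors and feedback genes 4 of 17 were called higher and 5 lower at 48 h (27.6% and 22.4% of all tested genes), and 6 and 5 at 72 h (23.0% and 22.5%). SMAD7, the inhibitory SMAD that TGF-beta induces, fell from 27.1 ± 1.10 to 19.1 ± 1.80 and 16.1 ± 1.86 FPKM (limma adjusted p = 0.00135 and 7.75e-05). PMEPA1, a membrane protein that TGF-beta also induces, fell from 50.5 ± 0.652 to 28.9 ± 0.896 and 28.8 ± 2.85. SMURF2, a ubiquitin ligase of SMADs and receptors, fell from 62.2 ± 1.78 to 28.6 ± 4.81 and 29.1 ± 1.33. SMAD6, which mainly restrains BMP signals, was at -0.02 at 48 h and fell by 1.04 at 72 h. DCN, the proteoglycan decorin, which binds TGF-beta, rose from 26.5 ± 1.03 to 46.9 ± 2.75 and 72.2 ± 1.21 FPKM, and BAMBI, a decoy receptor, from 2.69 ± 0.339 to 3.99 ± 0.300 and 4.80 ± 0.292.

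Transcriptional targets were called in both directions, with medians of -0.23 at 48 h and -0.04 at 72 h. ELN, elastin, fell by 0.99 and 0.88 on the log2 scale. In the opposite direction POSTN, the matrix protein periostin, rose from 20.7 ± 1.32 to 35.1 ± 4.65 and 67.6 ± 18.4 FPKM, and JUNB, a transcription factor of the AP-1 family, by 0.34 and 1.12. The JUNB call at 48 h was lost in 7 of 18 settings (0.18 to 0.38 over all settings, limma adjusted p up to 0.137), among them without 0 h replicate 2 or 3 and without 48 h replicate 1. CCN2, connective tissue growth factor, was at -0.24 at 48 h (limma adjusted p = 0.0334) and at 0.43 at 72 h (adjusted p = 0.00188). Its 48 h call was lost without 0 h replicate 2 (-0.16, adjusted p = 0.142), 48 h replicate 1 (-0.19, adjusted p = 0.108) and 48 h replicate 2 (-0.23, adjusted p = 0.0905), and with no filter on low values (adjusted p = 0.0774). ID1, a BMP and TGF-beta target, was at 0.57 at 48 h and at -1.54 at 72 h. HAS2, a hyaluronan synthase, was low, at 0.52 to 0.78 FPKM at 0 h, 2.43 to 2.72 at 48 h and 0.70 to 1.39 at 72 h. It passed the filter on low values only through the 48 h libraries, so its 48 h value is a description. Its log2 change was 1.13 at 48 h (up to 1.87 over all settings) and 0.26 at 72 h. The 72 h value was not called (limma adjusted p = 0.111) except without 72 h replicate 1 (0.37, adjusted p = 0.0417).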

How the data were processed

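RNA was sequenced in 9 libraries, 3 each at 0 h, 48 h and 72 h, grouped by the submitters' titles. These titles call the 0 h group control and give it no time. Per the labels' protocols, total RNA was depleted of ribosomal RNA and libraries were made with a NEBNext Ultra kit. The deposited values are FPKM made by the authors, with 1 value for each gene of a library, per the file headers. Named without roles in the submitters' processing notes are the tools RSEM 1.2.28, DESeq2, HISAT2 2.1.0 and featureCounts 2.0.2, and the build Sscrofa11.1. Annotation release and strand setting were not given in the sources used here. Reads of overlapping or antisense genes may therefore be mixed. FPKM is scaled within a library, so a rise of abundant transcripts lowers all other values. Near-identical copies of a gene could share reads.

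Symbols came from a table of gene IDs (14864 of 30477 matched) and positions from RefSeq's table of Sscrofa11.1 by symbol. All libraries entered 1 fit in limma 3.58.1 (R 4.3.3) on log2(FPKM + 1), with group as the only term, a trend in the prior variance, and two-sided tests adjusted over 11063 genes. The script was checked on simulated data. FPKM carries no counts and low values gave no stable estimate of relative depth, so depth is unknown and the spread between libraries (median SE of a log2 change 0.088) sets the precision. The 9 genes and the pathway lists were chosen with earlier results of these data known. Pathway genes were named if called and among the 2 highest or 2 lowest of their list at 48 h or 72 h against 0 h, and 9 were named whatever their values. A gene that this rule names is not reported here. Other settings varied the pseudocount (0.1), the filter on low values, the scaling, the weights, the prior, a replicate block and the libraries included.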

Additional observations from a re-analysis of the deposited data

Results flagged for a closer look

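The difference between 48 h and 72 h in their change from 0 h was tested for the 9 genes by the contrast of both times in limma, and 3 passed. The changes at 48 h and at 72 h share the 0 h libraries, whose means cancel in this contrast. The 3 calls are therefore those given above for 72 h against 48 h. TGFB3 fell further from 48 h to 72 h, at -0.74 on the log2 scale, lower in 3 of 3 libraries of 72 h than in any of 48 h. TGFBR3 was at 0.83 and TGFBI at 0.53, each higher in 3 of 3 libraries of 72 h than in any of 48 h. All of these calls held in every setting in which the gene was tested, with log2 values from -0.81 to -0.66 for TGFB3, 0.69 to 1.13 for TGFBR3 and 0.50 to 0.63 for TGFBI. Groups of 3 were not tested for single libraries that stand apart.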

How the results depend on the processing

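In 18 settings 480 values of the 9 genes were recomputed. Whether a value was called stayed the same for 464, 4 lost a call, 12 gained one and 0 reversed a call. The 464 include uncalled values that changed sign, such as FST at 48 h against 0 h (-0.14 to 0.10). The calls of TGFB2, TGFB3, INHBA and TGFBI against 0 h held in every setting, as did that of TGFBR3 at 72 h where it was tested. The calls lost were all of TGFB1 at 48 h. Of 1104 values of named pathway genes 43 lost a call, 15 gained one and 0 reversed. Counts moved by over 1.5 times as follows, with main values first, and the cause was not tested unless stated. At equal FPKM sums genes higher at 48 h went from 3048 to 1959, genes of the 9 higher at 48 h from 2 to 1, pathway genes higher at 48 h from 24 to 14, and genes lower at 72 h against 48 h from 1800 to 1127. After rescaling to protein-coding genes the last 3 were 1, 15 and 1162. With quantile normalization 1 of the 9 genes was higher at 48 h. The default estimate of library weights did not converge, so limma's gene-by-gene estimate was taken after the results of the default were seen. It gave 48 h replicates 1, 2 and 3 weights of 0.364, 3.22 and 0.525, and the other libraries 0.571 to 1.55. With these weights 4 of the 9 were higher at 48 h and 3 lower at 72 h against 48 h, and 1602 genes were higher at 72 h against 48 h (main 1014). With no filter on low values 2 of the 9 were lower at 72 h against 48 h (main 1). With the filter set to a mean FPKM of 5, where TGFBR3 and FST are not tested, 1 of the 9 was higher at 72 h against 0 h and 1 against 48 h (main 2 and 2). Leaving out 1 library gave 1 to 4 of the 9 higher and 3 to 3 lower at 48 h, 2 to 2 higher and 3 to 3 lower at 72 h, and 2 to 3 higher and 1 to 2 lower at 72 h against 48 h. It gave 589 to 1496 genes higher and 1136 to 2194 lower at 72 h against 48 h. The lowest counts of genes higher came without 48 h replicate 2 (589), 72 h replicate 1 (615) and 72 h replicate 3 (643). At equal sums 55.9% of the calls at 72 h against 48 h were higher, against 36.0% as deposited. The F-test over the 3 times called 5 to 7 of the 9 with 1 library left out (main 6). It called 5 at equal FPKM sums, after rescaling to protein-coding genes, under quantile normalization and with a mean FPKM of 5. With library weights it called 7.

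Correlations of deviations between same-numbered libraries were -0.07 to 0.19, with 2 of 9 pairs over 0.1. Between libraries of different numbers they were -0.18 to 0.17, with 4 of 18 pairs over 0.1. The numbers were therefore not taken as pairs, though so few pairs cannot exclude a weak pairing. With the replicate block 3081 genes were higher and 2551 lower at 48 h, 2602 and 2550 at 72 h, and 6 of the 9 genes differed among the times. Read depth is unknown, which limits the low genes FST and TGFBR3 most.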
